A study of Mus musculus with 9 samples.

Results

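The ubiquitin-specific proteases (USPs) were followed in the sensory hair cells (HCs) that detect sound and head movement, sorted from newborn mice that carried the wild-type or the Dmdo allele of Mir96. The members were taken by name, as the genes called Usp followed by a number, and 55 of the 43808 genes in the count tables were included. Of these, 44 had 20 or more reads in 2 or more of the 3 libraries of any genotype and were compared, 11 did not reach that level, and 8 of the 11 were listed at 0 in all 9 libraries. One of the 44, Usp6nl, shares the name but encodes a GTPase-activating protein for Rab proteins rather than a protease.

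RNA was sequenced from cells of the cochlea and the vestibular organs of P1 mice (postnatal day 1), which were sorted together from each mouse as positive for GFP and for the epithelial surface protein CD326. The 3 genotypes were wild-type (Mir96+/+, mice 44, 55 and 59), heterozygous (1 Dmdo allele, mice 45, 48 and 51) and homozygous mutant (both alleles Dmdo, mice 43, 46 and 47), with 1 library per mouse. All 3 genotypes also carried Atoh1/nGFP, a reporter in which GFP follows the expression of the HC transcription factor Atoh1. Dmdo is a germline point mutation in the seed of miR-96, so every cell of the mouse carried it and not the HCs alone. Dmdo came from the C3HeB/FeJ strain and the reporter from C57BL6, so the mice had a mixed background, and cochlear and vestibular HCs cannot be separated in these libraries.

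Ubiquitin is a small protein that is joined to other proteins as a tag for degradation by the proteasome, for sorting in endosomes or for signalling, and USPs are the largest family of the enzymes that take the tag off again. They differ in where in the cell they sit, which ubiquitin chains they cut and which cofactors they need, and several are close paralogs of each other. miR-96 is a microRNA of sensory cells that represses transcripts through matches to its seed, mostly in their 3′ UTRs.

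The mutation is shown here because the sites below were searched with both seeds. The mature strand of miR-96 from RefSeq lies at chr6:30169506-30169528 on the minus strand of GRCm38.p6, and the Dmdo form was derived from it with the single substitution A7U, counted from 1 at the 5′ end. Capitals mark the seed, bases 2 to 8.
miR-96 wild-type: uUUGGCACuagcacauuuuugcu
miR-96 Dmdo: uUUGGCUCuagcacauuuuugcu

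Sites were searched in the annotated 3′ UTRs of GENCODE vM21 (GRCm38), on the transcript strand, as GTGCCAAA or its 7-base parts GTGCCAA and TGCCAAA for the wild-type seed, and as GAGCCAAA, GAGCCAA and AGCCAAA for the Dmdo seed. All 44 compared members had an annotated 3′ UTR. A wild-type seed site was present in 10 of the 44 (22.7%), against 19.7% of the 12974 tested genes with a 3′ UTR, and a Dmdo seed site in 15 (34.1%), against 19.4%. The 3′ UTRs of the members were longer, with a median of 1942.5 bases against 1217.5 over all those genes, and whether the length accounts for the shares was not tested. Usp24 held neither kind of site. In the lines below, capitals mark the matched bases within the 3′ UTR and the coordinates are those of the capitals, for the carriers of the smallest p between homozygous mutant and wild-type HCs and, chosen after its values were seen, for Usp46.
Usp29 (wild-type seed, 8 bases, chr7:6965215-6965222, plus strand): actttaaaGTGCCAAAtatact
Usp5 (wild-type seed, 7 bases, chr6:124815051-124815057, minus strand): tggaaaaaTGCCAAAatacat
Usp11 (wild-type seed, 7 bases, chrX:20720168-20720174, plus strand): tttcctcaTGCCAAAgtgttc
Usp48 (wild-type seed, 7 bases, chr4:137658494-137658500, plus strand): aacctttcTGCCAAAttaaag
Usp13 (wild-type seed, the first of 3 sites of 7 bases, chr3:32933278-32933284, plus strand): ttttaattTGCCAAAaaagaa
Usp46 (wild-type seed, 7 bases, chr5:74001482-74001488, minus strand): ggcctagaTGCCAAAatcctc
Usp20 (Dmdo seed, 7 bases, chr2:31022241-31022247, plus strand): ggtgtcttGAGCCAAttctga
Usp47 (Dmdo seed, 7 bases, chr7:112110755-112110761, plus strand): tgtgattaGAGCCAActgtct
Usp29 (Dmdo seed, 7 bases, chr7:6965743-6965749, plus strand): caaccagcAGCCAAAatggta
Usp3 (Dmdo seed, 7 bases, chr9:66515639-66515645, minus strand): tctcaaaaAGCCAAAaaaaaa
Usp6nl (Dmdo seed, 7 bases, chr2:6443280-6443286, plus strand): cttgtaagGAGCCAAgctgta
Usp46 (Dmdo seed, 7 bases, chr5:74001349-74001355, minus strand): gcaggcaaAGCCAAAaggaag

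The libraries held 18175317 to 34873964 counted reads, of which the members took 0.301% to 0.395%. All 10 HC markers (among them Myo7a, Pou4f3 and Otof) passed the read filter. Their summed level was 9618 to 14254 CPM (reads scaled to the effective library size) in wild-type, 9328 to 12498 in heterozygous and 8199 to 9752 in homozygous mutant HCs. The markers did not move alike. Otof was at 2988 to 6427 CPM in wild-type and 1755 to 3093 in homozygous mutant HCs, Pou4f3 at 1127 to 1189 and 1054 to 1251, and Pvalb at 142 to 462 and 377 to 823. The study reported Otof, Myo7a and Gfi1 as lower in homozygous mutant HCs, so the sum is not read as HC content. The 4 red blood cell markers were listed at 0 throughout. The 8 supporting cell markers summed to 933 to 1714 CPM, and the 5 mesenchyme markers to 48.6 to 226 CPM apart from 711 in homozygous mutant 46. Libraries wild-type 59 and homozygous mutant 46 stood apart: 17.6% and 14.2% of the tested genes had a level under 10% of their own median over the libraries there, against 3.69% to 7.67% in the other 7. RNA integrity was lower in 1 wild-type and 1 homozygous mutant sample by the study's methods, which do not name the mice, so it is not known whether these were the libraries that stood apart. The transcripts that mark sex moved with genotype, since Xist exceeded Ddx3y in wild-type 44, wild-type 59 and heterozygous 48 and in no homozygous mutant library, and sex and genotype cannot be fully told apart. In such bulk samples fewer cells of a type and less RNA per cell cannot be told apart either.

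Most USP genes were present in P1 HCs, at levels that spread widely between members. Per kilobase of exon, the highest were Usp19, an enzyme anchored at the endoplasmic reticulum, at a mean of 64.0 CPM per kilobase over the 9 libraries, and Usp46, a partner of the cofactor WDR48 with a role in glutamate receptor turnover, at 43.6. Usp20 followed at 26.4, Usp5, which takes apart free ubiquitin chains, at 26.3, and Usp22, the histone protease of the SAGA complex, at 22.8 CPM per kilobase. The ranges over libraries of neighbouring members overlapped, for example 17.4 to 36.7 for Usp20 and 16.2 to 36.6 for Usp5, so their order is not fixed by these data. The lowest of the 44 were Usp40 at 1.03, Usp27x at 0.998, Usp53 at 0.587, Usp51 at 0.365 and Usp29 at 0.134 CPM per kilobase. The median over the 44 members was 6.17 CPM per kilobase, and Usp24 was the 27th at 5.12. The order also depended on the length used. With the longest transcript as the length, Usp4 (45.1 CPM per kilobase) lay above Usp5 (37.9) and Usp22 (25.1). By that length Usp13 (1.15) lay below Usp40 (2.43).

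**Figure D1:**
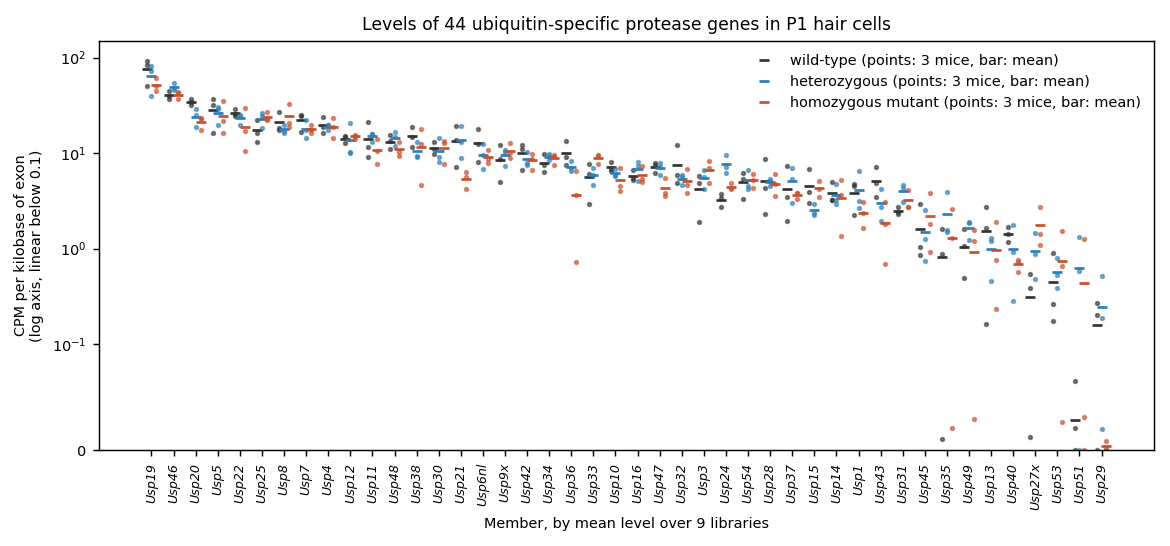
Level of each of the 44 compared members in CPM per kilobase of exon (vertical log axis, linear below 0.1), ordered by the mean over 9 libraries, with a point per mouse and a bar for the mean of each genotype. Usp19 and Usp46 stand at the left with means of 64.0 and 43.6, and the members at the right end fall to 0 in single libraries.

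Within the paralog pairs, all but 1 of those with both members compared had the same member on top in every library. Usp5 exceeded Usp13 by a mean ratio of 22.9 per kilobase and Usp22 exceeded Usp27x by 22.8, each in 9 of 9 libraries. Usp46 was 3.05 times its paralog Usp12, Usp20 was 3.92 times Usp33, Usp25 was 4.32 times Usp28, and Usp4 was 5.05 times Usp15, again in every library. The pair Usp38 and Usp35 gave a ratio of 8.35 and the pair Usp54 and Usp53 one of 8.72. The exception was the pair Usp43 and Usp31, at 3.32 and 3.23 CPM per kilobase, with Usp43 the higher in 3 of 9 libraries, those of wild-type mice. Their genotype means were 5.14 and 2.48 in wild-type, 2.98 and 4.01 in heterozygous and 1.85 and 3.20 CPM per kilobase in homozygous mutant HCs. Whether the order of the pair differs by genotype was not tested. Usp9y and Usp44, the partners of Usp9x and Usp49, were listed at 0. Counting a read that fits both copies could alter such ratios, and the sources used here do not give the treatment of such reads.

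The members that missed the filter had reads in few libraries or in none. Usp18, the interferon-induced protease of the ubiquitin-like protein ISG15, Usp26, Usp44, Usp9y and the 3 genes Usp17lb, Usp17lc and Usp17le were listed at 0 in every library, and so was Usp39, a splicing factor in general use in cells. The 0 of Usp39 is therefore given as listed and not as absence. Just outside the filter, Usp50 had 263 reads in homozygous mutant 46 and at most 1 elsewhere, Usp17ld had 199 reads in wild-type 59 alone, and Usp17la had 34 in the same library alone. Usp17 genes are near-identical copies, so the assignment of these reads to 1 copy is uncertain. Just inside it, Usp51 had 1, 4 and 0 reads in wild-type 44, 55 and 59, then 89, 0 and 46 in heterozygous 45, 48 and 51, and 2, 0 and 88 in homozygous mutant 43, 46 and 47.

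Usp29, an imprinted gene beside Peg3, was the other member at the edge of the filter and the only one with an 8-base site for the wild-type seed. It had 107, 101 and 0 reads in the wild-type libraries, 288, 12 and 121 in the heterozygous libraries and 0, 3 and 1 in the homozygous mutant libraries. The heterozygous and homozygous mutant counts did not overlap, whereas the wild-type group spanned both ranges through its library 59. No size of change is read from the fits of Usp29 or Usp51, because libraries of the compared groups lay at or near 0. Other members were also uneven between replicates: Usp35 had 0.055 CPM in wild-type 59 and 0.11 in homozygous mutant 46 but 4.62 to 20.6 elsewhere, and Usp49 had 0.254 CPM in homozygous mutant 47 but 4.21 to 16.2 elsewhere. Usp53, whose mutation causes hearing loss in mice, had 0.331 CPM in homozygous mutant 46, against 19.3 and 8.30 in homozygous mutant 43 and 47. Of the 11 values under 10% of a member's own median, 4 were in wild-type 59 and 3 in homozygous mutant 46. Their part in the results below is given by leaving both libraries out.

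**Figure D2:**
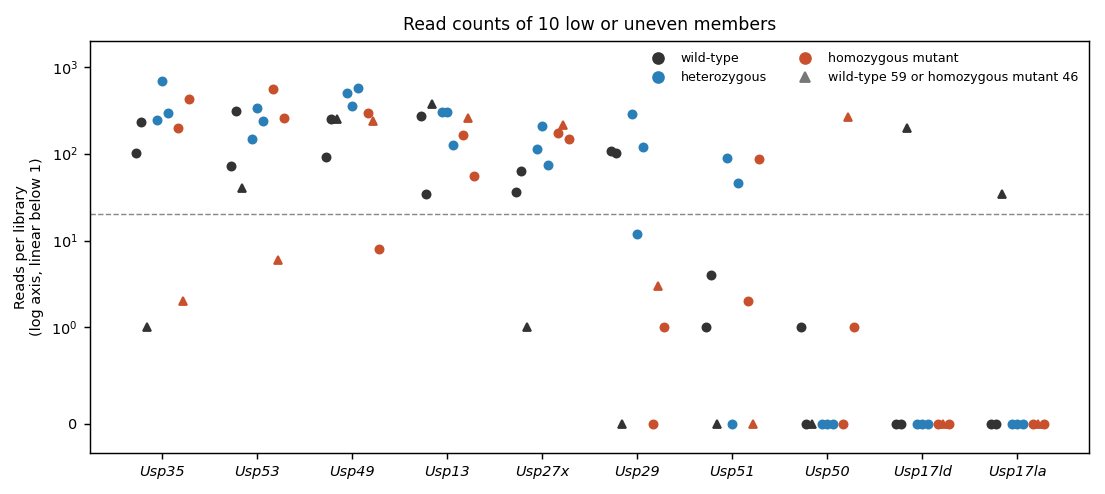
Reads per library (vertical log axis, linear below 1) of 10 low or uneven members, with a point per library coloured by genotype, triangles for wild-type 59 and homozygous mutant 46, and a dashed line at the 20 reads of the filter. Usp17ld and Usp17la have reads in a single triangle each (199 and 34), and Usp50 has 263 in 1 triangle and at most 1 in any other library. Usp29 lies at 3 reads or fewer in the homozygous mutant libraries.

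Replicates differed less in the members than in the tested genes as a whole. The SD of log2 CPM within genotypes had a median of 0.448 over the 44 members, from 0.129 for Usp46 to 2.63 for Usp35, against 0.726 over the 15184 tested genes. The median level of the members was also higher, 53.9 against 26.8 CPM, and the part of the level in that spread was not tested.

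The first comparison asked which USP genes differ between homozygous mutant and wild-type HCs. No member was called by the quasi-likelihood test of edgeR with Benjamini-Hochberg adjustment over all 15184 tested genes, where calls were made below a false discovery rate of 10% for folds over 1.5. The share of all tested genes called was 1.15%, with 0.237% higher and 0.915% lower. DESeq2 called 2 members, Usp20 and Usp21, against 6.36% of all tested genes, and limma-voom called 0, against 2.11%. At an unadjusted p under 0.05 in edgeR, 4 of 44 members were lower (Usp20, Usp21, Usp36 and Usp47), against 8.19% of all tested genes, and 0 were higher, against 4.92%. The median log2 fold change was -0.16 over the members and -0.02 over all tested genes, with 18 members above 0 and 26 below. Of all tested genes, 7454 lay above 0 and 7711 below. The standard errors had a median of 0.38 on the log2 scale over the 42 members other than Usp29 and Usp51, of which 29 had an estimate within 1.5-fold, so changes of that size could not be resolved for most members.

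Usp21, a nuclear enzyme that removes ubiquitin from histone H2A, had the smallest p among the members. Its levels were 34.3, 65.7 and 90.8 CPM in wild-type 44, 55 and 59, 42.2, 91.2 and 62.7 CPM in heterozygous 45, 48 and 51, and 26.9, 30.0 and 19.9 CPM in homozygous mutant 43, 46 and 47. All 3 homozygous mutant libraries lay below all 6 others, and the fold change against wild-type was -1.31 on the log2 scale (SE 0.44, 2.48-fold lower, edgeR adjusted p = 0.204). Against the heterozygous libraries it was -1.35 (SE 0.44, edgeR adjusted p = 0.698). The call depended on the settings: DESeq2 gave an adjusted p of 0.0904, and edgeR without wild-type 44, the lowest of its group, gave -1.61 and an adjusted p of 0.0444. The size depended on them as well. Without wild-type 59, the highest of its group, it was -0.96 (edgeR adjusted p = 0.441), and with a term for mouse number (47 and lower against 48 and higher) it was -0.53 against wild-type (edgeR adjusted p = 0.879) and -0.62 against heterozygous HCs. The labels do not call the mouse number a batch, and all 3 homozygous mutant mice were numbered 47 or lower.

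Usp20, a protease of the endoplasmic reticulum and endosomes that acts on receptors and on the hypoxia pathway, stood at 308, 286 and 331 CPM in the wild-type libraries. It stood at 169, 258 and 224 CPM in the heterozygous and at 210.4, 157 and 203 CPM in the homozygous mutant libraries. The wild-type libraries lay above both other genotypes, which overlapped each other. The difference between homozygous mutant and wild-type was -0.70 on the log2 scale (SE 0.25, 1.62-fold lower, edgeR adjusted p = 0.241, DESeq2 adjusted p = 0.0916), and that between heterozygous and wild-type was -0.51 (SE 0.25, edgeR adjusted p = 1.0). Its close paralog Usp33 went the other way, at 28.5, 74.4 and 58.5 CPM in wild-type, 67.9, 56.7 and 45.1 CPM in heterozygous and 74.8, 89.7 and 92.3 CPM in homozygous mutant HCs. The homozygous mutant values lay above the other 6, narrowly over wild-type 55, with a log2 fold change of 0.67 against wild-type (SE 0.38, edgeR adjusted p = 0.474). The difference between the paralogs was not tested, and 24.4% of the exon bases of Usp33 overlap genes of the opposite strand, whose reads may be counted with it.

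Usp36, the nucleolar member of the family, had 57.3, 69.2 and 104 CPM in wild-type libraries, 63.3, 53.6 and 49.9 CPM in heterozygous libraries and 27.7, 5.63 and 49.8 CPM in homozygous mutant libraries. The homozygous mutant group lay below the wild-type group and only just below the heterozygous one (49.8 against 49.9 CPM at the closest), and homozygous mutant 46 was far below its 2 replicates. The log2 fold change against wild-type was -1.47 (SE 0.53, edgeR adjusted p = 0.248), was -0.69 without wild-type 59 and homozygous mutant 46, and passed the threshold only when low-count genes were kept in the fit (edgeR adjusted p = 0.0469). Usp47, a regulator of base excision repair, had 85.5, 108 and 103 CPM in wild-type, 99.1, 81.4 and 108 CPM in heterozygous and 74.6, 49.0 and 52.8 CPM in homozygous mutant libraries. Its homozygous mutant values lay below all 6 others, with -0.75 against wild-type (SE 0.32, edgeR adjusted p = 0.315) and -0.71 against heterozygous HCs (SE 0.32, edgeR adjusted p = 0.699).

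The groups did not overlap for 9 members between homozygous mutant and wild-type HCs, against 16.5% of all tested genes. Of these, 3 were higher (Usp24, Usp27x and Usp33, against 7.61% of all tested genes) and 6 lower (Usp20, Usp21, Usp36, Usp40, Usp43 and Usp47, against 8.9%). Without wild-type 59 and homozygous mutant 46 the count was 18, against 40.7% of all tested genes with 2 libraries against 2, so both counts lay near the share of all genes. Usp43 had 16.3, 23.2 and 33.6 CPM in wild-type and 14.4, 8.62 and 3.24 CPM in homozygous mutant HCs (log2 fold change -1.48, SE 0.82, edgeR adjusted p = 0.452). Usp40 had 13.8, 16.8 and 20.2 CPM against 8.94, 6.74 and 8.65 CPM (log2 fold change -1.06, SE 0.93, edgeR adjusted p = 0.694). At an unadjusted p under 0.05 there were 2 members (Usp21 and Usp29) rather than 4 when both libraries were left out, against 10.6% of all tested genes in the same fit.

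**Figure D3:**
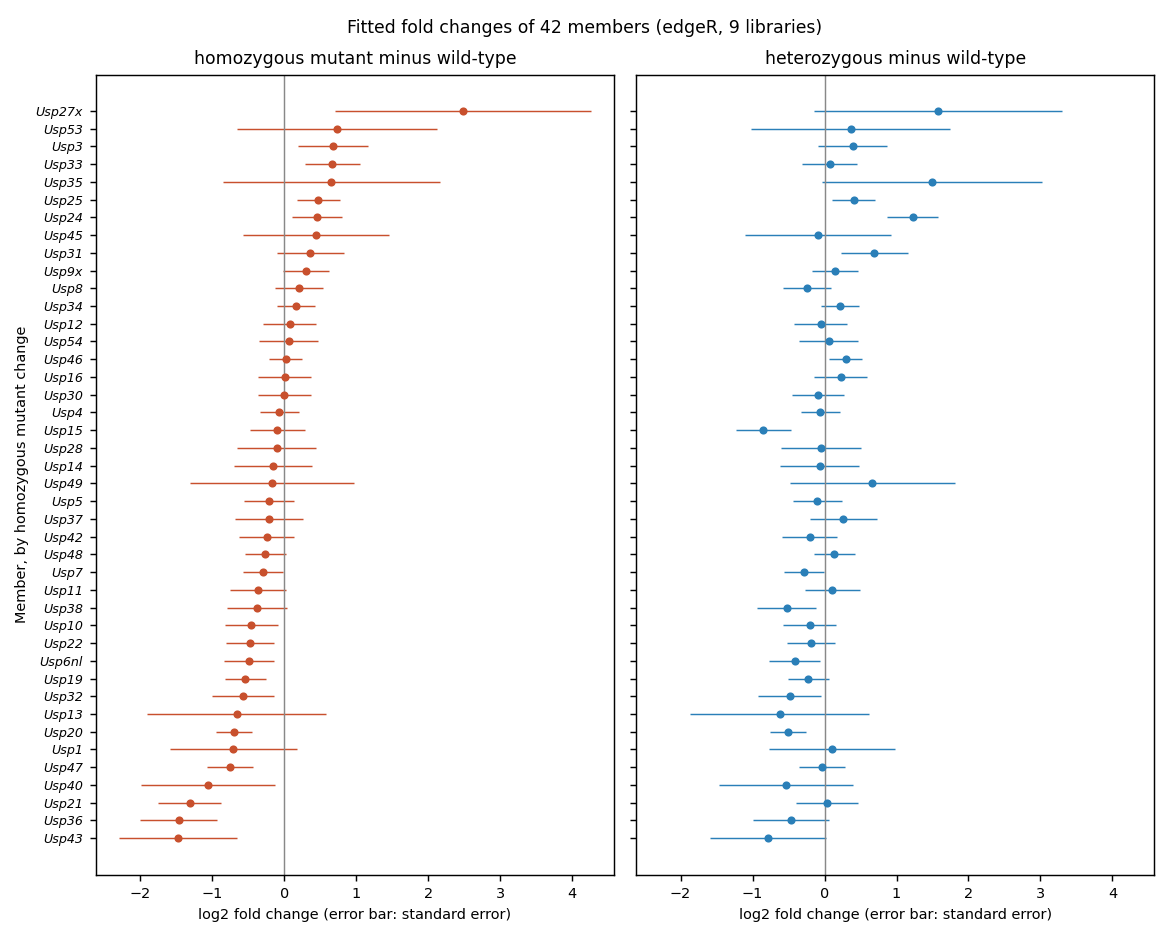
Log2 fold change with its standard error (horizontal axis, bars) of 42 members, without Usp29 and Usp51, for homozygous mutant minus wild-type HCs (left) and heterozygous minus wild-type HCs (right), in the order of the left values. The left values run from -1.48 for Usp43 to 2.48 for Usp27x, and on the right Usp24 lies at 1.22 and Usp15 at -0.85.

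The next comparison asked whether HCs with 1 Dmdo allele differ from wild-type HCs. No member was called by edgeR, DESeq2 or limma-voom in this comparison. Of all tested genes, edgeR called 0%, DESeq2 0.296% and limma-voom 0.00659%. Usp24 was chosen for its level in heterozygous HCs and is left out of the counts by p that follow. At an unadjusted p under 0.05 there was 1 of the other 43 members, against 4.52% of all tested genes. It was Usp15, among the lower genes (2.73% of all tested), and 0 members were among the higher (1.79%). The median log2 fold change was -0.05 over the members and -0.03 over all tested genes. The groups did not overlap for 5 members, against 10.8% of all tested genes, with Usp24, Usp31 and Usp46 higher (5.41% of all tested genes) and Usp15 and Usp20 lower (5.38%), and nothing is read from the part of Usp24 in such counts. Heterozygous and wild-type libraries were also used in the other comparisons, so the comparisons are not independent of each other.

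Usp24 was singled out for its peak in heterozygous HCs, and its values are a description with no test. Usp24 encodes one of the very large members of the family, and it lies at chr4:106316213-106441322 on the plus strand. Its levels were 41.6, 33.6 and 45.7 CPM in wild-type 44, 55 and 59, 76.8, 118 and 87.5 CPM in heterozygous 45, 48 and 51, and 52.3, 52.6 and 60.6 CPM in homozygous mutant 43, 46 and 47. The 3 ranges did not touch, in the order wild-type, homozygous mutant, heterozygous. The means were 40.3 ± 6.17, 94.1 ± 21.5 and 55.2 ± 4.68 CPM (SD, n = 3 each), which gave a fitted ratio of 2.34 between heterozygous and wild-type and of 1.37 between homozygous mutant and wild-type HCs. Without wild-type 59 and homozygous mutant 46 the heterozygous minus wild-type difference was 1.34 on the log2 scale, against 1.22 with them. Among the 5 libraries other than wild-type 55 in which Ddx3y exceeded Xist, the 2 heterozygous values were 76.8 and 87.5 CPM and the homozygous mutant values 52.3 to 60.6 CPM, and wild-type 55 was at 33.6 CPM. The fit without the 2 libraries and this subset use the values by which Usp24 was chosen, so neither is support for the peak.

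In the other very large members the genotypes overlapped, and whether they differ from Usp24 was not tested. Usp9x, an X-linked enzyme of cell adhesion and polarity, had 75.3, 129 and 181 CPM in wild-type, 155, 110.1 and 161 CPM in heterozygous and 149.8, 193 and 132 CPM in homozygous mutant HCs, with overlap between all 3 genotypes. Its fold change between homozygous mutant and wild-type was 0.30 on the log2 scale (SE 0.31, edgeR adjusted p = 0.753), and 0.12 with a term for the sex transcripts. Usp34, a regulator of Wnt signalling, ranged from 117 to 179.9 CPM in wild-type, from 156 to 178 CPM in heterozygous and from 139 to 176 CPM in homozygous mutant HCs. Its means were 145 ± 32.0, 168 ± 11.4 and 163 ± 20.4 CPM in that order (SD, n = 3 each), and the heterozygous level differed from the midpoint of both homozygous genotypes by 0.13 on the log2 scale (SE 0.23). Among the other X-linked members, Usp11 ranged from 36.6 to 99.0 CPM over all 9 libraries with overlap between genotypes (log2 fold change -0.37, SE 0.39, edgeR adjusted p = 0.756 for homozygous mutant against wild-type).

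Usp27x, an X-linked member that uses the SAGA adaptors in place of Usp22, was low and had 1.65, 2.30 and 0.055 CPM in wild-type, 3.73, 6.21 and 2.06 CPM in heterozygous and 6.01, 11.7 and 4.70 CPM in homozygous mutant libraries. The homozygous mutant values lay above the wild-type values, and its estimate of 2.48 on the log2 scale had an SE of 1.78 (edgeR adjusted p = 0.606). The lowest value was again in wild-type 59 and the highest in homozygous mutant 46, and without both libraries the estimate was 1.46 on the log2 scale.

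**Figure D4:**
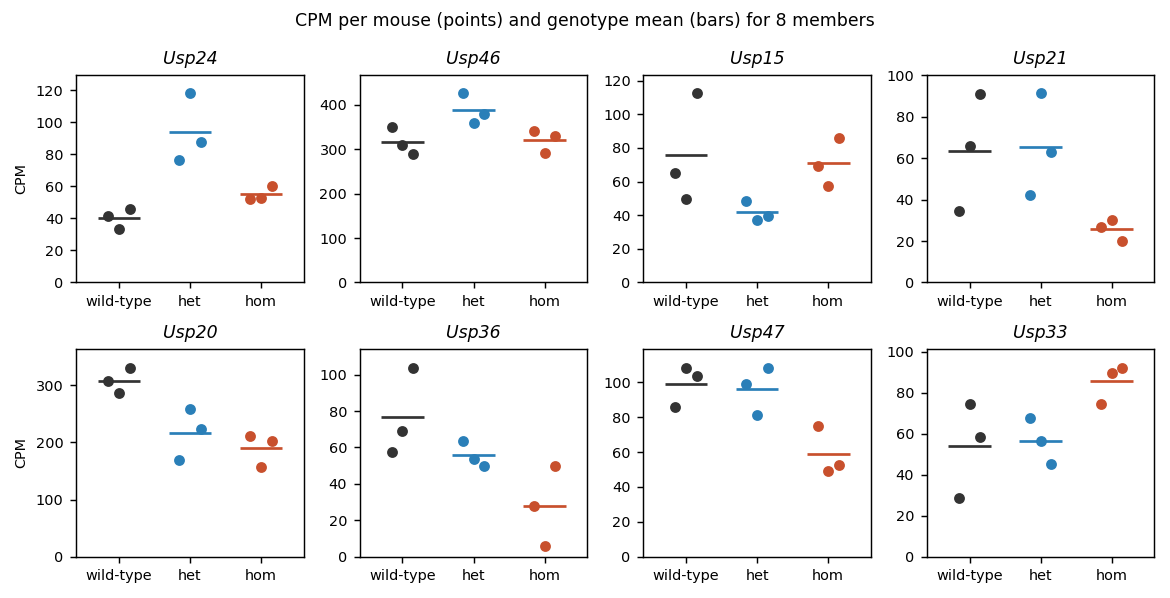
CPM of 8 members (vertical axis from 0, a scale per panel) in the 3 mice of each genotype, with a point per mouse and a bar for the mean; het and hom stand for heterozygous and homozygous mutant. The heterozygous points of Usp24 (76.8 to 118) lie above all others of that gene, those of Usp15 (37.3 to 48.7) lie below, and the homozygous mutant points of Usp21 (19.9 to 30.0) lie below.

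Besides Usp24, 2 members had heterozygous values beyond all 6 libraries of the homozygous genotypes. Usp46 had 350.0, 309.9 and 289 CPM in wild-type, 426, 359 and 379.8 CPM in heterozygous and 341, 292 and 330.4 CPM in homozygous mutant HCs. The heterozygous values lay above all the others (359 against 350.0 CPM at the closest), and the log2 difference from the midpoint of the wild-type and homozygous mutant levels was 0.28 (SE 0.20, edgeR adjusted p = 1.0). Usp15, a regulator of TGF-beta signalling and the paralog of Usp4, had 65.2, 49.6 and 112 CPM in wild-type, 48.7, 37.3 and 39.6 CPM in heterozygous and 69.5, 57.4 and 85.6 CPM in homozygous mutant HCs. Its heterozygous values lay below all the others, with -0.85 against wild-type (SE 0.38, edgeR adjusted p = 1.0) and -0.81 against the midpoint (SE 0.34, edgeR adjusted p = 1.0). The difference from wild-type was -0.44 without wild-type 59 and homozygous mutant 46. Of all tested genes, 1.64% had heterozygous values beyond all 6 libraries of the homozygous genotypes, 1.01% above and 0.626% below.

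Against this midpoint no member was called by edgeR, DESeq2 or limma-voom. Of all tested genes, edgeR called 0%, DESeq2 0.0988% and limma-voom 0%. At an unadjusted p under 0.05 there was again 1 member other than Usp24, against 3.32% of all tested genes. It was Usp15, below the midpoint (1.41% of all tested genes), and 0 others were above it (1.91%). The median was 0.02 on the log2 scale over the members and 0.00 over all tested genes, with 26 members above 0, Usp24 among them. Of all tested genes, 7634 lay above 0 and 7550 below.

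Between homozygous mutant and heterozygous HCs no member was called by the 3 tools either. Of all tested genes, edgeR called 0.00659%, DESeq2 0.968% and limma-voom 0.896%. At an unadjusted p under 0.05, 3 members other than Usp24 were found, against 6.78% of all tested genes. Usp21, Usp29 and Usp47 were lower in homozygous mutant HCs, against 3.89% of all tested genes in that direction, and 0 were higher, against 2.9%. The count was 1 (Usp21) without heterozygous 45, against 7.96% of all tested genes in that fit. The groups did not overlap for 8 members, against 14.2% of all tested genes. Usp15 and Usp33 were higher (6.95% of all tested genes) and Usp21, Usp24, Usp29, Usp36, Usp46 and Usp47 lower (7.27%). Usp24 was chosen for its heterozygous level, so nothing is read from its part in this count. The median was -0.10 on the log2 scale over the members and 0.00 over all tested genes, with 13 members above 0 and 31 below. Of all tested genes, 7582 lay above 0 and 7588 below. Usp24 was among the 31 members, and nothing is read from its part in them.

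By role, no group of members had a call by edgeR in any of the 4 comparisons, and the 2 calls of DESeq2 between homozygous mutant and wild-type HCs fell among the members that act on histones (Usp21) and those of the endoplasmic reticulum and endosomes (Usp20). Of the members that act on histones, 7 of 8 were tested, and their log2 fold changes between homozygous mutant and wild-type HCs ran from -1.31 for Usp21 to 2.48 for Usp27x apart from Usp51. Usp3, which removes ubiquitin from histone H2A, was at 33.2, 39.4 and 13.1 CPM in wild-type and 33.3, 56.0 and 47.7 CPM in homozygous mutant HCs, with overlapping groups (log2 fold change 0.67, SE 0.48, edgeR adjusted p = 0.606). Usp22 was at 141, 125 and 119.8 CPM in wild-type and 144, 82.6 and 51.2 CPM in homozygous mutant HCs (log2 fold change -0.47, SE 0.33, edgeR adjusted p = 0.599). All 7 lay above 0 in heterozygous HCs against the midpoint, as did 7634 of all 15184 tested genes. Their median was 0.34 on the log2 scale, the estimate of Usp27x (SE 1.44), and 0 of 7 had an unadjusted p under 0.05. The 7 include Usp51, whose fit is not read, and Usp22 (0.05, SE 0.29) and Usp3 (0.05, SE 0.42), which lay near 0.

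A further list held Usp4, Usp11, Usp15, Usp32 and Usp48, which carry DUSP and ubiquitin-like domains, and Usp19, which has no DUSP domain. Usp20 and Usp33 also carry DUSP domains but were not on the list, and they lay at -0.70 and 0.67 as given above. Of the 6 listed members, all 6 had estimates below 0 between homozygous mutant and wild-type HCs, with a median of -0.31 against -0.02 over all tested genes and none at an unadjusted p under 0.05. Usp19 was at 353, 591 and 651 CPM in wild-type, 279, 578 and 508 CPM in heterozygous and 311, 433 and 353 CPM in homozygous mutant libraries, with overlap (log2 fold change -0.54, SE 0.29, edgeR adjusted p = 0.425). Usp32 was at 37.3, 44.8 and 92.4 CPM in wild-type and 35.3, 29.4 and 52.7 CPM in homozygous mutant libraries, where the high wild-type value was that of library 59. Usp4 differed least, with -0.07 on the log2 scale (SE 0.27).

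The partners of WDR48, Usp1, Usp12 and Usp46, had estimates of -0.71 (SE 0.88), 0.07 (SE 0.36) and 0.02 (SE 0.23) on the log2 scale between homozygous mutant and wild-type HCs. Usp1, which acts on the Fanconi anaemia pathway, was the low one of the 3 at 6.08 to 24.5 CPM over the 9 libraries. Of the members that handle free chains or sit on the proteasome, Usp5, Usp13 and Usp14 were at -0.21 (SE 0.34), -0.66 (SE 1.24) and -0.16 (SE 0.55).

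Among the members of endosomes and organelles, Usp8, which sorts endocytosed receptors with the ESCRT machinery, was at 74.0, 76.1 and 114 CPM in wild-type, 83.4, 71.0 and 68.2 CPM in heterozygous and 86.5, 138 and 79.0 CPM in homozygous mutant HCs, with overlap. Usp30, which opposes the removal of damaged mitochondria, was at 0.00 on the log2 scale between homozygous mutant and wild-type HCs (SE 0.37). Of the 5 members of DNA replication and repair, Usp1, Usp7, Usp28, Usp37 and Usp45, 4 lay below 0 in the same comparison, with a median of -0.21. Usp7, which controls the p53 regulator MDM2, was at 129, 188 and 195 CPM in wild-type and 153, 136 and 126 CPM in homozygous mutant HCs (log2 fold change -0.30, SE 0.28, edgeR adjusted p = 0.713).

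Some members had the same sign in both genotypes with a Dmdo allele without a call. Both genotypes were set against the same wild-type libraries, so an equal sign is no separate support. Usp25 was at 68.5, 116 and 84.7 CPM in wild-type, 136, 126 and 95.3 CPM in heterozygous and 141, 118 and 115 CPM in homozygous mutant HCs, with log2 fold changes of 0.41 (SE 0.30) and 0.47 (SE 0.30, edgeR adjusted p = 0.537). Wild-type 55 reached the other groups. Usp31 was at 28.3, 24.9 and 23.5 CPM in wild-type and 44.3, 31.9 and 47.8 CPM in heterozygous HCs, which did not overlap (log2 fold change 0.69, SE 0.47, edgeR adjusted p = 1.0), and at 42.7, 28.1 and 28.0 CPM in homozygous mutant HCs. Usp38 was at 84.2, 66.9 and 108 CPM in wild-type, 74.6, 52.2 and 53.1 CPM in heterozygous and 70.9, 102 and 26.3 CPM in homozygous mutant HCs. Usp6nl was at 65.2, 100.3 and 143 CPM, 99.7, 54.6 and 76.8 CPM, and 63.5, 85.8 and 70.3 CPM in the same order, with overlap.

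The carriers of seed sites were then set beside the other members. Between homozygous mutant and wild-type HCs, the median log2 fold change was -0.21 over the 10 members with a wild-type seed site (2 of 10 above 0) and -0.09 over the 34 without one (16 of 34 above 0). It was -0.17 over the 15 members with a Dmdo seed site (5 of 15 above 0) and -0.10 over the 29 without one (13 of 29 above 0). Of the 4 members at an unadjusted p under 0.05, Usp20 and Usp47 held a Dmdo seed site and Usp21 and Usp36 held none. In heterozygous against wild-type HCs the medians were 0.02 with and -0.05 without a wild-type seed site, and 0.10 with and -0.06 without a Dmdo seed site. A match is a description of these letters only, and binding was not measured.

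The rest of the ubiquitin system was seen through lists of related genes. Of 36 tested deubiquitinases of other families, 0 were called by edgeR in any comparison. In homozygous mutant against wild-type HCs, 2 were lower at an unadjusted p under 0.05, beside 8.19% of all tested genes. In the same comparison 0 were higher, beside 4.92%. The 2 lower genes were Otud5 (-0.78 on the log2 scale, SE 0.33) and Uchl3. Uchl3 was at 15.3, 0.0720 and 36.9 CPM in wild-type and 1.43, 1.77 and 2.58 CPM in homozygous mutant HCs, so wild-type 55 lay below all homozygous mutant libraries. Of 10 cofactors, 0 were called in that comparison, beside 1.15% of all tested genes. At an unadjusted p under 0.05, 2 cofactors were higher, beside 4.92% of all tested genes, and 2 were lower, beside 8.19%. Dmwd, which joins WDR48 and Usp12 or Usp46, had the smallest p, at 135, 163 and 145 CPM in wild-type, 55.9, 92.0 and 98.1 CPM in heterozygous and 50.9, 40.7 and 90.9 CPM in homozygous mutant HCs (log2 fold change -1.28, SE 0.35, edgeR adjusted p = 0.105). The wild-type values of Dmwd lay above those of both other genotypes. Among the other cofactors, the SAGA adaptor Atxn7l3 was at -0.77 (SE 0.30, edgeR adjusted p = 0.275) and Gmps, a partner of Usp7, at 1.29 (SE 0.45, edgeR adjusted p = 0.224), with 126 CPM in homozygous mutant 46 against 52.5 and 42.3 CPM in its replicates. Of 6 ubiquitin and ubiquitin-activating enzyme genes, 0 were called and 0 had an unadjusted p under 0.05. In homozygous mutant against wild-type HCs, these shares were 1.15% and 13.1% over all tested genes.

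Of 30 tested ubiquitin-conjugating enzymes, 4 were higher and 3 lower at an unadjusted p under 0.05 between homozygous mutant and wild-type HCs. Of all tested genes, 4.92% were higher and 8.19% lower. By edgeR only Ube2u was called, as higher, against 0.237% of all tested genes, and the alternatives were not read for Ube2u. It was at 12.4, 10.2 and 25.3 CPM in wild-type, 24.5, 6.99 and 14.8 CPM in heterozygous and 46.3, 121 and 59.7 CPM in homozygous mutant HCs, with the homozygous mutant values above all others (log2 fold change 2.24, SE 0.57, edgeR adjusted p = 0.0796). Ube2o was lower without a call (log2 fold change -1.03, SE 0.31, edgeR adjusted p = 0.154), and Ube2l6 had 0 CPM in all wild-type libraries and 2.09, 24.7 and 0.0318 CPM in the homozygous mutant libraries.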

How the data were processed

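RNA-seq was performed by the authors on sorted HCs of 9 mice, 3 per genotype. Per the labels and the methods, a strand-specific kit was used, reads were aligned to GRCm38 with HISAT2 2.0.4, and reads per gene were counted with HTSeq. The authors deposited raw counts per Ensembl gene, without normalization. The strand setting of the counting, and RNA integrity, litter and sex per library, are not given in the sources used here, so reads of overlapping genes may be mixed: 51.2% of the exon bases of Usp49 overlap a gene of the same strand, and of Usp14, Usp33, Usp38, Usp29, Usp43 and Usp34 11.6% to 26.0% overlap one of the opposite strand.

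From the counts, CPM with TMM factors were computed, and levels were compared between genes as CPM per kilobase of the union of exons in GENCODE vM21. All genes that had 20 or more reads in 2 or more of the 3 libraries of a genotype were tested with the quasi-likelihood test of edgeR 4.0.16 (robust, TMM, all 9 libraries in 1 fit, R 4.3.3), with calls below a false discovery rate of 10% (Benjamini-Hochberg over all tested genes) for folds over 1.5. "Heterozygous against the midpoint" compares the heterozygous level with the mean of the wild-type and homozygous mutant levels on the log2 scale. Groups do not overlap when every library of one lies beyond every library of the other in CPM. Alternatives were DESeq2 1.42.0, limma-voom (limma 3.58.1), other size factors, other filters and thresholds, terms for sex transcripts or mouse number, only the compared genotypes, and leaving out libraries. The scripts were tested on simulated data. Replicates of a genotype were no repeats of 1 library, since the chi-square between 2 of them, averaged over genes, was 104.7 to 258.2 over the 9 pairs.

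The members, lists and the choice of Usp24 were made with earlier results of these data known. Named were Usp24, the 5 members of smallest p per direction and comparison, those at both ends of the levels, X- or Y-linked members, the 5 seed site carriers of smallest p per seed, members at the edge of the filter, and up to 3 genes of smallest p per other list. Others were named to complete a role or a count, after their values were seen. Figures and tables used Python 3.11.15 and pandas 2.3.3.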

Additional observations from a re-analysis of the deposited data

How the results depend on the processing

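Of 733 fold changes of named members under the alternatives, 723 kept their direction without a call, 4 kept it and were called, and 6 turned. Most of these members were named for their small p in the same libraries, and Usp24 for its heterozygous peak. The alternatives reuse those libraries, so a kept direction is no separate support for a change. In homozygous mutant against wild-type HCs the count of called members was 0 in edgeR and 2 with DESeq2 (Usp20 and Usp21). It was 1 without the low-count filter (Usp36), and 0 to 1 when a library was left out (Usp21 without wild-type 44). The share of all genes called was 1.15% in edgeR, 6.36% with DESeq2, 2.79% without the low-count filter and 4.87% without wild-type 44. That share was 0.079% with the term for sex transcripts and 0.165% with the mouse number term, where 0 members were called. In the other 3 comparisons the count of called members was 0 under every alternative run. With 1 library left out, the values that turned, on the log2 scale, ran from -0.75 (without homozygous mutant 47) to 5.09 for Usp51 between homozygous mutant and wild-type, which rest on libraries near 0 and are not read as folds, from -0.72 to 0.016 (without wild-type 59) for Usp32 between heterozygous and wild-type, from -0.12 (without homozygous mutant 46) to 1.12 for Usp45 between homozygous mutant and heterozygous, and from -0.30 to 0.0067 (without heterozygous 45) for Usp20 against the midpoint. Without both wild-type 59 and homozygous mutant 46, Usp32 was at 0.031 and Usp45 at -0.12. The causes were not tested.

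Added after the data were seen, the counts without wild-type 59 and homozygous mutant 46 moved as follows. Members without overlap were 18 in homozygous mutant and 8 in heterozygous against wild-type, with 21.2% of all tested genes in the latter. At an unadjusted p under 0.05 in edgeR, members other than Usp24 were 0 rather than 1 in heterozygous against wild-type, beside 4.74% of all tested genes, and also 0 without wild-type 59 (3.54%) or heterozygous 51 (2.95%). Against the midpoint they were 3 rather than 1 (Usp15, Usp21 and Usp29, beside 4.48%), 2 without heterozygous 45 (3.48%), and 0 without heterozygous 48, heterozygous 51 or homozygous mutant 47 (2.14% to 3.35%). The median level was 11.1 CPM per kilobase with the length of the longest transcript, against 6.17. With 8-base sites alone, 1 member held a wild-type seed site (Usp29) and 2 held a Dmdo seed site (Usp14 and Usp40).

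No paired analysis was possible because no mouse number is shared between genotypes. A two-sided exact permutation test of 3 mice against 3 reaches p = 0.1 at best, and low members such as Usp13, Usp35 and Usp53 had standard errors above 1.2 on the log2 scale.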
